A study of Mus musculus with 3 samples.

Results

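Rab GTPases are small proteins that switch between a GTP-bound and a GDP-bound form and direct membrane traffic. The GTP-bound form sits on a given membrane and recruits effectors that move, tether or fuse vesicles, exchange factors load the GTP and GTPase-activating proteins (GAPs) end the signal. A lipid added to cysteines at the C-terminus holds the protein on the membrane, and GDP dissociation inhibitors take it off again. Osteoclasts depend on this traffic, because the ruffled border with which they resorb bone is built by fusion of lysosome-related vesicles, a step for which Rab7 is known.

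The genes described were the protein-coding genes of GENCODE M21 whose symbol is Rab, a digit and at most 3 further characters. The annotation held 62 such genes, of which 50 had transcripts in the mRNA table, among 12392 protein-coding genes in all. These 50 genes had 175 of the 56651 listed transcripts. Rab17, Rab25, Rab27b, Rab33a, Rab36, Rab38, Rab39b, Rab3b, Rab3c, Rab40b, Rab44 and Rab9b were not analysed here. The symbol rule also took in Rab3il1 and Rab3ip, which are exchange factors, and Rab5if, so that 47 of the 50 genes code for GTPases. The symbol rule itself used no measured values. Only genes with transcripts in the mRNA table could be described, and earlier results of these data were known when the set was chosen.

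Apoptotic bodies (ABs), the membrane-bound fragments that dying cells shed, were profiled from bone marrow macrophages (BMM-ABs), preosteoclasts (pOC-ABs) and mature osteoclasts (mOC-ABs), with 1 library each. All cells came from the marrow of male C57BL/6 mice at postnatal week 11 and were grown for 72 h in 50 ng/ml M-CSF. Preosteoclasts then had RANKL at 100 ng/ml for 24 h and mature osteoclasts for 72 h or more, beside M-CSF at 30 ng/ml, while the macrophages had no RANKL. Per the labels, alendronate at 500 µM for 12 h induced apoptosis in all 3 cultures, whereas the study's methods name staurosporine, a longer RANKL time for mature osteoclasts and another M-CSF dose. The sample titles name the cells and the design text names ABs, and all 3 are treated here as ABs. Nothing says how many mice or cultures went into a library. A culture with RANKL can also hold cells that have not become osteoclasts, and the bodies were collected by centrifugation. Where 3 values follow each other below, they stand in the order of macrophages, preosteoclasts and mature osteoclasts.

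The mRNA table summed to 9100082, 7387317 and 7705592 reads, which makes 3 reads worth 0.330, 0.406 and 0.389 reads per 1000000 reads of the table (RPM). There were no replicates, and no difference between libraries could be set against a spread between samples. Intervals are exact 95% binomial intervals of the reads of 2 libraries and cover counting error only. The reads carry no molecular identifiers, so PCR copies of the same molecule cannot be told apart and the intervals may be too narrow even for that. Of the osteoclast markers, 9 of 10 were listed, with a summed level of 345, 581 and 1870 RPM, while Itgb3 had 6, 3 and 0 reads. All 8 macrophage markers were listed, at 5774, 2764 and 1795 RPM in sum. The listed lymphocyte markers (3 of 7), platelet markers (1 of 5) and stromal markers (3 of 7) stayed at or below 4.87 RPM in every library, and no neutrophil or erythroid marker was listed. A smaller share of bodies from one cell type and less of a transcript in each body cannot be told apart in these libraries. The part of the osteoclast and macrophage shift in the Rab values was not tested.

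The ends of the coding sequences are shown first, because the cysteine codons there (TGT or TGC) code for the residues that carry the lipid and mark which of the genes are membrane-anchored Rabs. They are the last 30 coding bases, stop codon included, of the most-read complete coding transcript, taken from the GENCODE M21 transcripts on GRCm38 and written 5′ to 3′ on the coding strand, with cysteine codons in capitals. Those chosen are the genes that differed most between libraries, the most abundant Rab, single-cysteine Rabs and the genes that are no GTPases.
Rab15, chr12:76800243-76800272, minus strand: gcaaactcttcaaagaccTGCtggTGCtga
Rab43, chr6:87792590-87792619, minus strand: attgcggagagctggggcTGTgggTGCtga
Rab7, chr6:88000435-88000464, minus strand: aaggcctccgcagaaagcTGCagtTGTtga
Rab32, chr10:10546302-10546331, minus strand: acaacaaagcccaggtcccagTGCTGCtga
Rab22a, chr2:173701090-173701119, plus strand: ccatcggagccaaagcgaagcTGCTGCtga
Rab11b, chr17:33747668-33747697, minus strand: aacaagctgcagTGCTGCcagagcctgtga
Rab8b, chr9:66847719-66847748, minus strand: accagtttcttccgcTGTtctctgctttga
Rab13, chr3:90225554-90225583, plus strand: aagaagaagaacaagTGCttgttaggctga
Rab3il1, chr19:10034510-10034539, plus strand: aagcttggcttcttcccccaggaggcctag
Rab5if, chr2:156873055-156873084, plus strand: atcttttacactgccatccactatgactga

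Of the 47 GTPases, 39 had 2 cysteine codons among the last 5 codons before the stop, 6 had 1 and 2 (Rab18 and Rab26, in the transcripts read) had none. In 15 genes, Rab15, Rab43 and Rab7 among them, 1 other codon stood between the pair and the second cysteine codon was the last. In 13 genes, such as Rab32 and Rab22a, the pair formed the last 2 codons. The single cysteine codon of Rab8a, Rab8b, Rab13, Rab23, Rab28 and Rab40c was the fourth from the end in each. None of Rab3il1, Rab3ip and Rab5if had a cysteine codon there. Codons for an aspartate, threonine, alanine and glycine in a row, the core of the nucleotide-binding switch, were present in 42 of the 47 GTPases and in 0 of the other 3.

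Rab genes took 0.280% of the mRNA reads of BMM-ABs (25456 reads, exact binomial interval 0.276 to 0.283%), 0.305% of those of pOC-ABs (22562 reads, 0.301 to 0.309%) and 0.298% of those of mOC-ABs (22986 reads, 0.294 to 0.302%). The share of the family was thus lowest in BMM-ABs, and the intervals of the other two overlapped. Over the reads of both tables the shares were 0.200%, 0.190% and 0.199%, with pOC-ABs lowest. The 7 most-read genes (Rab31, Rab7, Rab5c, Rab1b, Rab1a, Rab14 and Rab5b) held 52.0%, 48.7% and 57.4% of the Rab reads. Per transcript length, as FPKM summed over the transcripts of a gene, Rab7, Rab5c and Rab1b were the 3 highest genes, in this order, in every library. Rab7 stood at 193, 209 and 234 FPKM, Rab5c at 125, 145 and 147 FPKM, and Rab1b at 106, 99.7 and 140 FPKM. The median gene lay at 16.6, 17.6 and 15.4 FPKM, and 43, 44 and 44 of the 50 genes reached 1 FPKM.

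**Figure D1:**
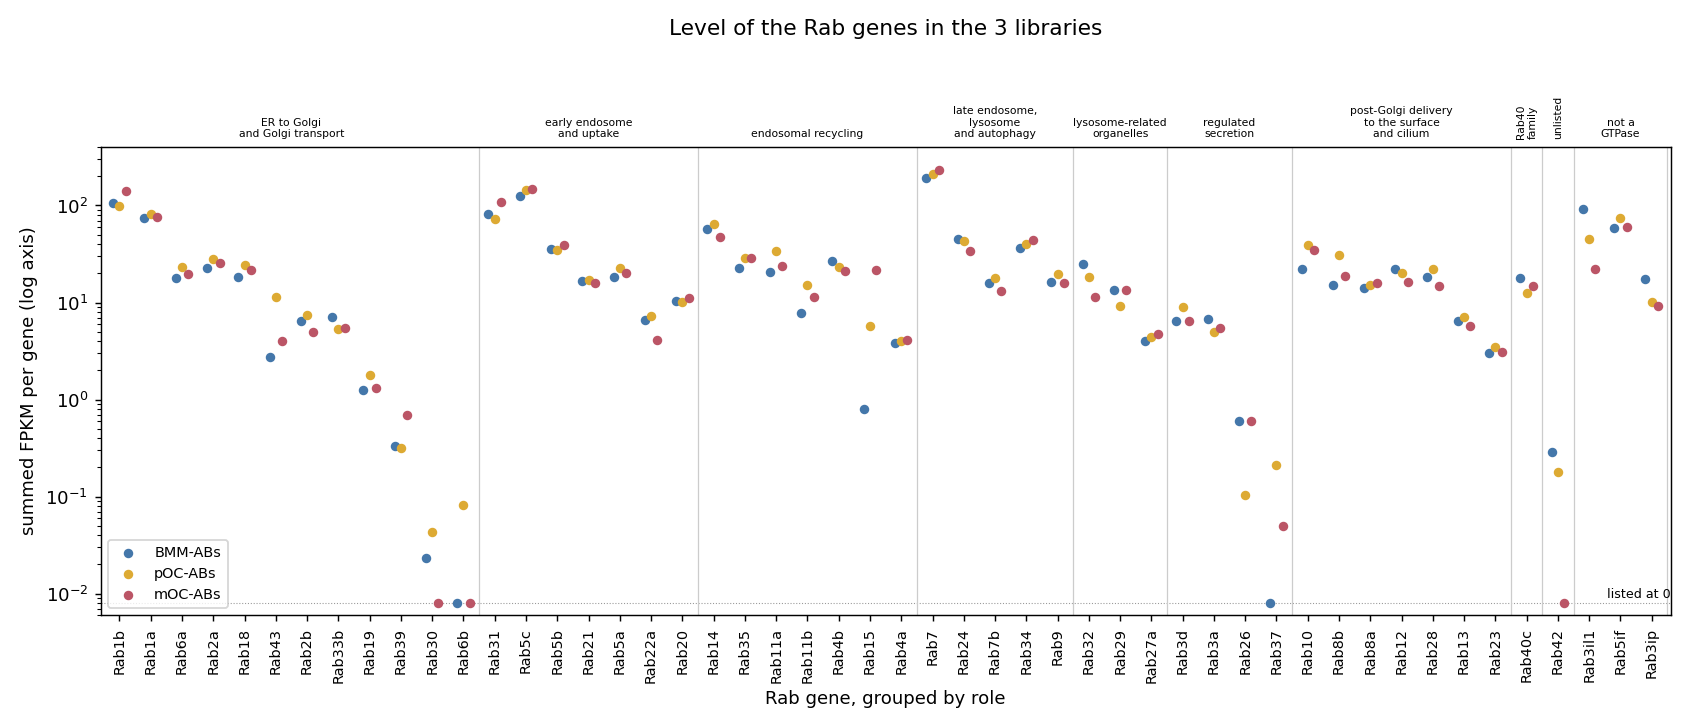
FPKM summed per gene (log axis) of the 50 Rab genes, grouped by role and ordered by reads within a role, with 1 point per library (BMM-ABs, pOC-ABs, mOC-ABs). The 3 points of most genes lie close together, Rab7 is highest at 193 to 234, Rab15 spans 0.81 to 21.9, and points on the dotted line are listed at 0.

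A gene was called higher or lower when its reads, summed over its transcripts and divided by the mRNA total of the library, differed by over 2-fold with at least 20 reads in the pair. In pOC-ABs against BMM-ABs (G1), 4 of 44 Rab genes (9.09%) were higher, Rab15, Rab43, Rab11b and Rab8b, against 2.93% of all protein-coding genes, and 1 (2.27%), Rab3il1, was lower, against 5.56%. In mOC-ABs against BMM-ABs (G2), 2 of 45 (4.44%) were higher, Rab15 and Rab39, against 3.11%, and 3 (6.67%), Rab3il1, Rab32 and Rab22a, were lower, against 8.54%. In mOC-ABs against pOC-ABs (G3), 2 of 45 (4.44%) were higher, Rab15 and Rab39, against 2.64%, and 2 (4.44%), Rab43 and Rab22a, were lower, against 5.47%. The comparisons share libraries, so these counts are not independent. In all, 8 genes were called in at least 1 comparison and 42 in none. The 42 include 5 genes with under 20 reads in the 3 libraries together, which could not be called. No matching share over all protein-coding genes was computed, so these 2 counts do not set Rab genes apart from other genes.

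The median log2 ratio of the Rab genes was 0.15 in G1 (order-statistic interval -0.04 to 0.28), beside -0.05 over all protein-coding genes. In G2 it was 0.08 (-0.12 to 0.20) beside -0.09. In G3 it was -0.18 (-0.35 to 0.06) beside -0.05. Each interval held 0, a point that depends on the total used. The G1 interval, which began at -0.0431, lay just above the median over all genes (-0.0481). This was lost when reads of overlapping lncRNA-table transcripts were added, with the reads of both tables as total. There the G1 interval (-0.28 to 0.09) held the median over all genes (-0.24). Under the main setting, the G2 and G3 intervals each held the median over all genes. Genes are the units of these intervals, so they measure no spread between samples. Of the 44 genes with 20 reads or more in every pair, 25 stayed within 0.5 on the log2 scale in all 3 comparisons. The same share over all protein-coding genes was not computed, so this count does not show Rab genes to be steadier than others. Dividing by the reads of both tables instead moved every log2 ratio by -0.20 (G1), -0.10 (G2) and 0.10 (G3).

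**Figure D2:**
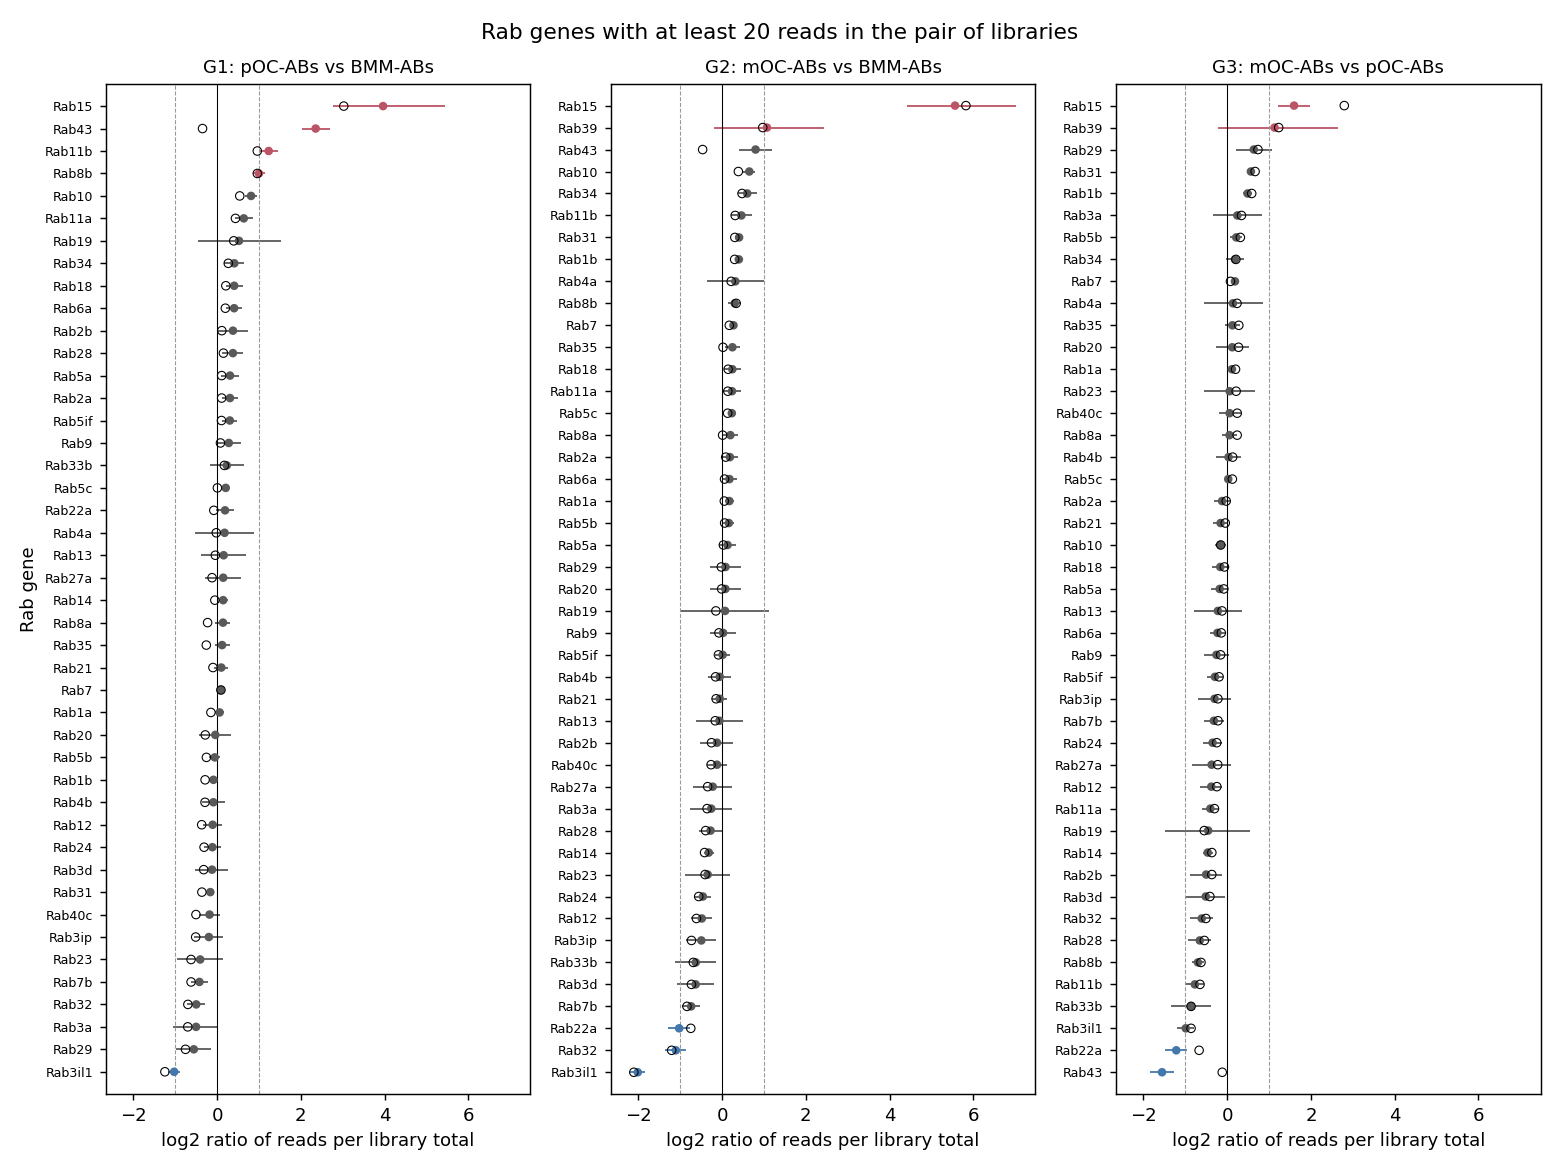
Log2 ratio of reads per library mRNA total for the Rab genes with at least 20 reads in the pair (filled points, bars are exact 95% binomial intervals of counting error), one panel per comparison, with genes past 2-fold (dashed lines) in red or blue. Open circles give the ratio over the reads of both tables, with reads of lncRNA-table transcripts whose locus overlaps the gene's exons added. There Rab43 moves from 2.35 to -0.35 in G1 while Rab15 stays past the limit in each comparison.

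Rab15, a Rab of endosomal recycling, differed most. It had 6 reads in BMM-ABs against 76 in pOC-ABs and 240 reads in mOC-ABs. Its level was thus lowest in macrophage ABs and highest in those of mature osteoclasts. It was 15.6-fold higher in G1 (log2 3.96, interval 2.78 to 5.45). The ratio was 47.2-fold in G2 (log2 5.56, 4.42 to 7.02). Between the RANKL-treated libraries (G3) it was 3.03-fold (log2 1.60, 1.22 to 1.99). The gene spans chr12:76797960-76822908 on the minus strand. Its full-length coding transcript Rab15-201 had 0, 55 and 137 reads, and the retained-intron transcript Rab15-207 had 0, 1 and 48. A transcript of the lncRNA table, NONMMUT014727.2, lay wholly within the exons of Rab15-201, in the non-coding part toward the 3′ end, and had 6, 15 and 376 reads. With such reads added, Rab15 had 12, 91 and 616 reads and, over the reads of both tables, log2 ratios of 3.02, 5.82 and 2.80.

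The other members of the recycling group were much closer together. Rab14 had 1511, 1356 and 1025 reads. Rab35 had 549, 484 and 551. Rab11a, which acts at the recycling endosome, had 343, 433 and 342 reads and was at 0.64 on the log2 scale in G1 (0.43 to 0.85). Its paralog Rab11b had 248, 473 and 289 reads, 2.35-fold higher in G1 (log2 1.23, 1.01 to 1.46) and 1.38-fold in G2 (log2 0.46, 0.21 to 0.71). Rab11a and Rab11b were thus both highest in pOC-ABs, with Rab11b past 2-fold. Rab11b shared 9.50% of its 50-base words with other genes, mostly with the pseudogene Rab11b-ps2, which had 21, 11 and 11 reads. The ratio of Rab11b in G1 was 0.94 on the log2 scale by summed FPKM, under the limit. It was 1.03 with the reads of both tables as total, and 0.96 when its 29, 29 and 23 lncRNA-table reads were added as well. Rab4a had 37, 34 and 39 reads and Rab4b, described below for its transcripts, 253, 193 and 206.

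In the ER to Golgi and Golgi group, Rab1b and Rab1a, which act between the ER and the Golgi, had the most reads. Rab1b had 1770, 1352 and 1977 reads, and its ratio in G3 was 0.49 on the log2 scale (0.39 to 0.59). Rab1a had 1533, 1297 and 1464. Rab6a, of traffic within and from the Golgi, had 475, 511 and 454. These 3 genes stayed under 2-fold in each comparison.

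Rab43 was the one member of this group with a called difference in G1. Its reads were 93, 386 and 137, highest in pOC-ABs. The ratio was 5.11-fold in G1 (log2 2.35, 2.02 to 2.70), and in G3 the level was 0.340 of that in pOC-ABs (log2 -1.56, -1.85 to -1.27). The lncRNA-table transcript NONMMUT057839.2, at chr6:87788866-87791317, lies wholly within the exons of Rab43-203, covers 53.2% of that transcript outside its coding bases, and had 441, 5 and 214 reads. It was lowest where the Rab43 reads were highest. The reads of both tables over the exons of Rab43 came to 534, 391 and 351, with log2 ratios of -0.35 (G1), -0.47 (G2) and -0.12 (G3), so the call in pOC-ABs rests on which table holds these reads. Rab43 also shared 79.0% of its 50-base words with Gm45140, which had 11, 2 and 0 reads.

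Rab39 had 9, 7 and 16 reads, and its ratios of 2.10-fold in G2 (log2 1.07, -0.19 to 2.43) and 2.19-fold in G3 (log2 1.13, -0.23 to 2.66) had intervals that held 0. The remaining members of the group, Rab18, Rab2a, Rab2b, Rab33b and Rab19, ranged from 16 to 439 reads in a library and had log2 ratios between -0.86 and 0.52. Rab30 and Rab6b had at most 3 reads in any library, which is the detection floor.

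**Figure D3:**
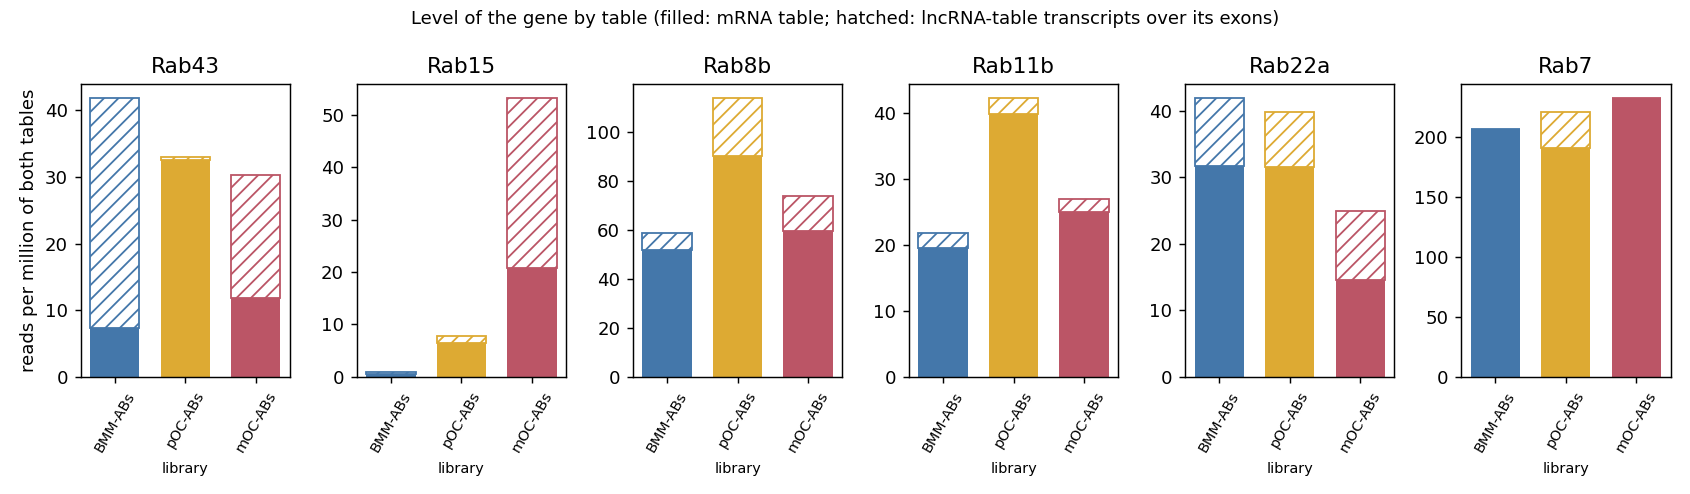
Level in RPM, here per 1000000 reads of both tables, for 6 Rab genes in the 3 libraries. Filled bars are the mRNA table and hatched bars are lncRNA-table transcripts whose locus, introns included, overlaps an exon of the gene. The filled bar of Rab43 is highest in pOC-ABs (32.5 RPM) while its full bar is highest in BMM-ABs (41.9), and the full bar of Rab15 rises from 0.942 to 7.67 and 53.3.

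In the post-Golgi group, Rab8b and Rab10 both had higher levels in pOC-ABs than in BMM-ABs. Rab8b, which carries cargo to the cell surface, had 659, 1070 and 688 reads. It was 2.0-fold higher in G1 (log2 1.0, 0.86 to 1.14), just past the limit, and its log2 ratio in G2 was 0.30 (0.15 to 0.46). The lncRNA-table transcript NONMMUT069683.2, whose locus overlaps the exons of Rab8b, had 66, 277 and 159 reads, also highest in pOC-ABs. With the reads of both tables as total the log2 ratio of Rab8b in G1 was 0.80, and 0.96 when the overlapping lncRNA-table reads were added as well. The call passed in only 3 of the 7 alternatives that recompute the ratio. Rab10, known for moving receptors and transporters to the surface, had 705, 1004 and 936 reads, with log2 ratios of 0.81 in G1 (0.67 to 0.95) and 0.65 in G2 (0.51 to 0.79). Rab8a, the paralog of Rab8b, had 541, 484 and 525 reads, and its log2 ratio in G1 was 0.14 (-0.04 to 0.32), so that the intervals of Rab8a and Rab8b did not overlap. Rab13 had 63, 57 and 51 reads, within counting error in each comparison. Rab12, Rab28 and Rab23 had 46 to 362 reads and log2 ratios from -0.65 to 0.38. On protein-coding transcripts alone Rab23 was outside this range, at -2.47 in G1 and 1.68 in G3, where Rab23-201, the main one of these, had 39, 6 and 19 reads.

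The early endosome Rabs were among the most abundant. Rab31, of transport between the Golgi and endosomes, had 2598, 1885 and 2913 reads. Its log2 ratio in G3 was 0.57 (0.48 to 0.65). Rab5c, one of 3 Rab5 genes that control fusion of early endosomes, had 2185, 2046 and 2172 reads. Rab5b had 1008, 787 and 954 and Rab5a 394, 396 and 365. The 3 Rab5 genes stayed within 0.31 of 0 on the log2 scale in each comparison.

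Rab22a, of early endosomes as well, was the exception. It had 404, 374 and 168 reads, lowest in mOC-ABs. The level in mOC-ABs was 0.491 of that in BMM-ABs (log2 -1.03, -1.29 to -0.76) and 0.431 of that in pOC-ABs (log2 -1.22, -1.49 to -0.95). As the reads were assigned to transcripts, the difference from BMM-ABs lay in 1 transcript. Rab22a-203, annotated for nonsense-mediated decay, had 211, 0 and 0 reads, whereas the coding Rab22a-201 had 190, 373 and 160. All 7045 exon bases of Rab22a-203 are also in Rab22a-201, and the effect of read assignment was not tested. On protein-coding transcripts alone the log2 ratio was 1.26 in G1 and 0.04 in G2, while in G3 it stayed past 2-fold at -1.22. With lncRNA-table reads added, and the reads of both tables as total, it was -0.75 in G2 and -0.67 in G3, under the limit. Rab20 and Rab21 had 104 to 608 reads and log2 ratios between -0.16 and 0.12.

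Rab7, the Rab of late endosomes, lysosomes and the osteoclast ruffled border, had 2638, 2270 and 2695 reads. Its log2 ratios were 0.08 (0.00 to 0.17), 0.27 (0.19 to 0.35) and 0.19 (0.11 to 0.27) in the 3 comparisons, all under the limit of 1. The lncRNA-table transcript NONMMUT057857.2 in its 3′ part had 1, 351 and 1 reads. The processed pseudogene Rab7-ps1, which holds most of the 11.2% of the 50-base words of Rab7 found in other genes, had 379, 432 and 477 reads. Rab24, linked to autophagy, had 510, 383 and 314 reads, and Rab7b 497, 301 and 252. Both were lowest in mOC-ABs, with log2 ratios in G2 of -0.46 (-0.67 to -0.25) and -0.74 (-0.96 to -0.52). Rab34 went the other way with 290, 313 and 372 reads (log2 0.60 in G2, 0.37 to 0.83), and Rab9 had 201, 198 and 173.

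The Rabs of lysosome-related organelles summed to 77.1, 58.5 and 48.8 RPM. Rab32, a Rab of melanosomes and related organelles, had the most reads of them, with 470, 270 and 185. It was at 0.465 of the BMM-AB level in mOC-ABs (log2 -1.11, -1.36 to -0.86) and at 0.708 in pOC-ABs (log2 -0.50, -0.72 to -0.28), and its call in G2 held in all 7 alternatives that recompute the ratio. Rab29 had 134, 74 and 120 reads. Rab27a, which docks secretory lysosomes and exosome-forming compartments, had 98, 88 and 71 reads, in sum within counting error in each comparison. On protein-coding transcripts alone Rab27a was lower in mOC-ABs, at -0.67 in G2 and -0.77 in G3 on the log2 scale, under the limit.

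The Rabs of regulated secretion were low. Rab3d, known from osteoclasts for post-Golgi vesicles of bone resorption, had 130, 97 and 71 reads. Its log2 ratio was -0.63 in G2 (-1.07 to -0.20) and -0.51 in G3 (-0.97 to -0.05). By summed FPKM Rab3d stood at 6.43, 9.02 and 6.50, so the decrease in G2 was absent by that measure. Rab3a had 82, 47 and 58 reads. Rab26 had 7, 1 and 6, Rab37 0, 4 and 1, and Rab42, which was in none of the role groups, 2, 1 and 0, too few for a comparison. Rab40c, of a family that takes part in protein degradation, had 324, 232 and 252 reads and log2 ratios between -0.18 and 0.06. On protein-coding transcripts alone Rab40c was past the limit, at 1.67 in G1 and 1.64 in G2, since a processed transcript described below held most of its reads in BMM-ABs.

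Of the 3 genes that are no GTPases, Rab3il1 gave the largest decrease in the set. It had 1480, 590 and 310 reads. The level fell to 0.491 of BMM-ABs in G1 (log2 -1.03, -1.17 to -0.89) and 0.247 in G2 (log2 -2.02, -2.20 to -1.84), and reached 0.504 in G3 (log2 -0.99, -1.19 to -0.79), just under the limit, and was past it there on protein-coding transcripts alone (log2 -1.47). Its rank by FPKM moved from 4 to 8 and 15. Rab3ip, the related exchange factor, had 175, 124 and 105 reads (log2 -0.50 in G2, -0.86 to -0.14), and Rab5if 534, 535 and 456. Without these 3 genes the median log2 ratio was 0.15 (G1), 0.11 (G2) and -0.16 (G3).

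The split of reads among transcripts varied more than the gene sums for some genes. Transcripts annotated as protein-coding held 93.7% (exact interval 93.4 to 94.0%), 95.2% (94.96 to 95.52%) and 95.8% (95.5 to 96.1%) of the Rab reads, beside 90.2%, 91.5% and 91.9% over all protein-coding genes. Of the 32 Rab genes with at least 100 reads in each library, 4 (12.5%), Rab1a, Rab22a, Rab40c and Rab4b, had a most-read transcript that was not the same in the 3 libraries, against 21.3% of all protein-coding genes. Among genes with more than 1 listed transcript these were 4 of 24 (16.7%) and 24.4%.

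Rab1a, the most-read of these 4 genes, kept a nearly constant sum. Rab1a-206 had 1046, 17 and 722 reads, with pOC-ABs far below the others, and Rab1a-201 had 370, 1112 and 680. Rab1a-206 thus carried 68.2%, 1.31% and 49.3% of the reads of the gene. All 2657 exon bases of Rab1a-206 are also exon bases of Rab1a-201, which is 2827 bases long. In Rab22a, Rab22a-201 holds all 7045 exon bases of Rab22a-203. In Rab40c, the processed transcript Rab40c-205 had 231, 1 and 1 reads and the coding Rab40c-209 had 22, 137 and 125, and they share 99.0% and 90.2% of their bases. In Rab4b, the coding Rab4b-201 had 146, 88 and 63 reads and the retained-intron transcript Rab4b-205 had 77, 90 and 139, a share of 30.4%, 46.6% and 67.5% of the gene. Rab4b shared 60.6% of its 50-base words with other genes, mostly with Gm21983, which had 0, 2 and 1 reads.

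Other transcripts stood apart in 1 library at lower counts. Rab3d-203 had 74, 3 and 0 reads beside 37, 65 and 46 for Rab3d-201. Rab7-203 had 360, 7 and 236, while Rab7-201 had 1454, 1397 and 1547. Rab3il1-207, annotated for nonsense-mediated decay, had 0, 0 and 87 reads, and Rab34-208 had 46, 0 and 0. Rab1a-206 and Rab7-203 were both low in pOC-ABs, and Rab22a-203, Rab40c-205, Rab3d-203 and Rab34-208 were all highest in BMM-ABs. How the assignment of reads to transcripts that share most of their bases bears on these values was not tested.

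**Figure D4:**
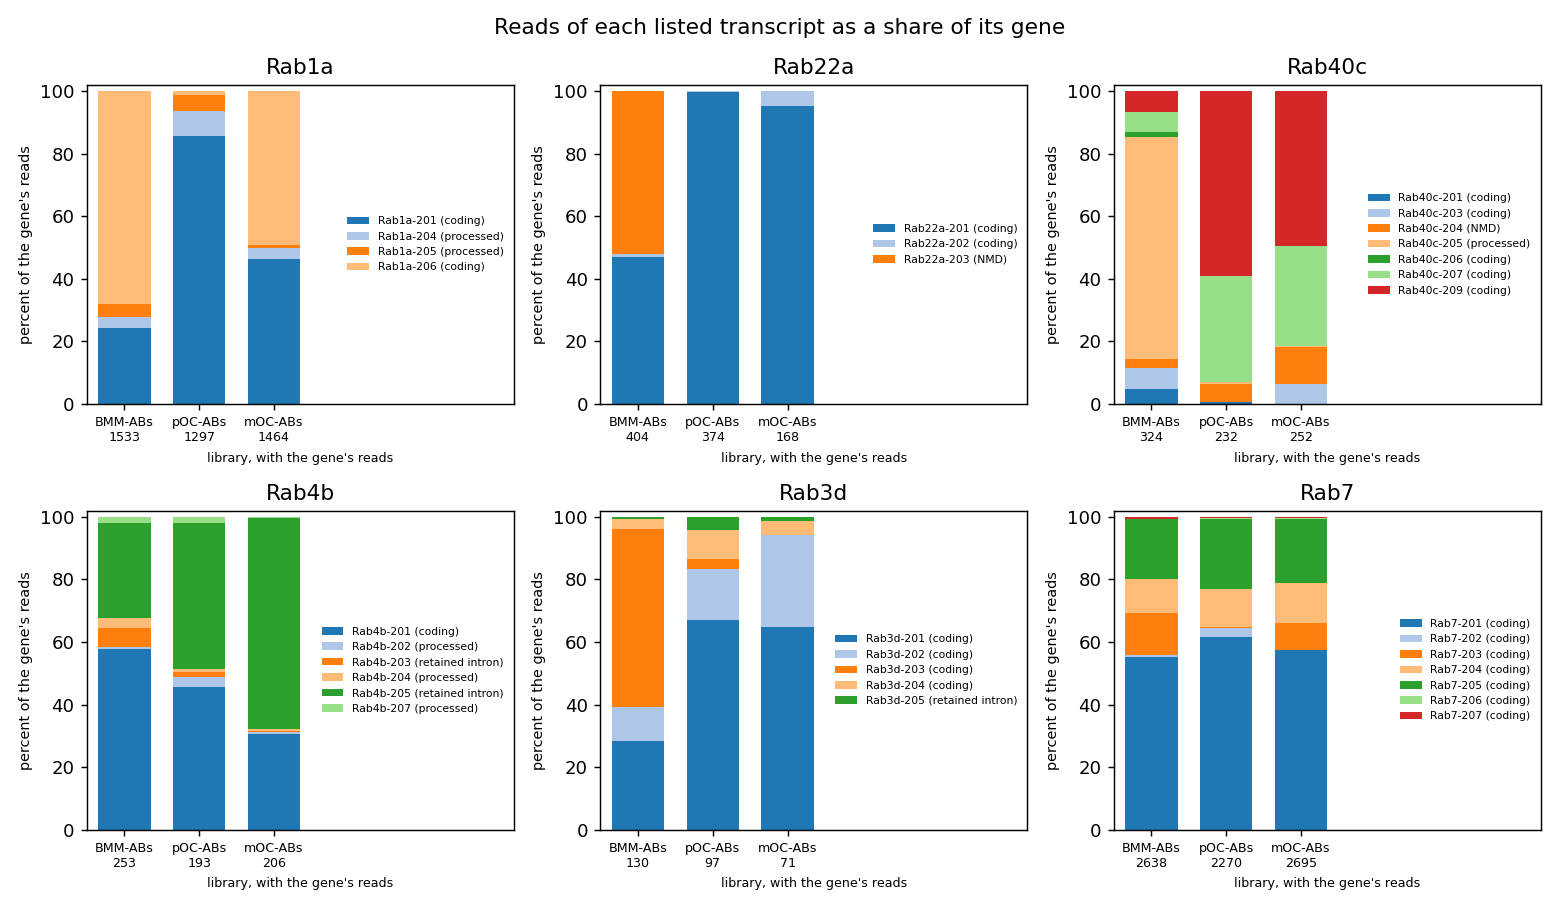
Share of a gene's reads on each listed transcript (stacked bars, percent) in the 3 libraries for 6 Rab genes, with the reads of the gene under each bar and the annotated type of each transcript in the key (NMD, nonsense-mediated decay). Rab1a-206 falls from 68.2% to 1.31% in pOC-ABs, Rab22a-203 and Rab40c-205 hold 52.2% and 71.3% in BMM-ABs and under 1% elsewhere, and Rab4b-205 goes from 30.4% to 67.5%.

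In the lncRNA table, 44 transcripts had a locus that overlapped exons of 25 of the Rab genes, with 2481, 2219 and 2347 reads in sum. Of them 19, over 15 genes, had at least 20 reads in a library. The locus was taken from start to end with introns, so a transcript that reaches beyond the exons need not share exon bases with the gene. Strandedness of the libraries is not stated, so reads of overlapping transcripts on either strand cannot be told apart. Besides those over Rab15, Rab43 and Rab7, 5 lay wholly within exons and outside the coding bases. NONMMUT066114.2 over Rab8a had 685, 492 and 597 reads, and NONMMUT013215.2 over Rab10 had 418, 561 and 437. NONMMUT054079.2 over Rab35 had 298, 176 and 229, NONMMUT041611.2 over Rab22a 112, 75 and 108, and NONMMUT033866.2 over Rab3il1 84, 24 and 19. Divided by the reads of both tables, the one over Rab10 was highest in pOC-ABs and the one over Rab3il1 in BMM-ABs, as were the mRNA reads of the gene. Those over Rab8a, Rab35 and Rab22a were not highest in the library where the mRNA reads of their gene were.

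The others reached beyond the exons. At Rab11b, ENSMUST00000170103 had 1, 27 and 1 reads and NONMMUT029207.2 had 26, 1 and 20. At Rab10, ENSMUST00000179643 had 12, 5 and 21 and NONMMUT013218.2 had 50, 34 and 18. NONMMUT030317.2 at Rab12 had 41, 18 and 20 reads, NONMMUT008758.2 at Rab1a 36, 12 and 16, and NONMMUT069684.2 at Rab8b 21, 5 and 7. The remaining 3 lay at Rab33b (ENSMUST00000193090, with 13, 24 and 9 reads), Rab34 (NONMMUT010890.2, with 8, 21 and 4) and Rab40c (MSTRG.20296.1, with 31, 3 and 9).

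Adding the reads of all such overlapping transcripts to every protein-coding gene, with the reads of both tables as total, left 1 of 44 Rab genes higher in G1 (Rab15, against 1.95% of all genes) and 1 lower (Rab3il1, against 8.73%). In G2 it left 1 of 45 higher (Rab15, against 2.47%) and 2 lower (Rab3il1 and Rab32, against 10.4%). In G3, 2 of 45 were higher (Rab15 and Rab39, against 2.95%) and 0 lower, against 4.74%. Rab15 and Rab3il1 were thus the genes called in G1 and in G2 under both ways of counting.

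The genes that act on Rabs were taken from lists of known regulators and effectors. All 8 genes of prenylation and membrane recycling were listed, none was called in G1 or G3 and 1 of 8 was lower in G2, where 8.54% of all protein-coding genes were. That was Chml, an escort protein that presents Rabs for lipid addition, with 227, 116 and 68 reads (log2 -1.50 in G2, -1.91 to -1.10). The GDP dissociation inhibitor Gdi2 was the most-read of the list with 3256, 2885 and 2648 reads. Rabggta, a subunit of the lipid-adding enzyme, had 354, 310 and 312 reads.

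Of 36 exchange factors, 0 were higher in any comparison, while 1 was lower in G1, 4 in G2 and 1 in G3. Of all protein-coding genes, 2.93%, 3.11% and 2.64% were higher and 5.56%, 8.54% and 5.47% lower in G1, G2 and G3. Rab3il1, described above, was the one in G1 and belongs to both sets. In G2, Rin2, which acts on Rab5, was lower at 1721, 818 and 558 reads (log2 -1.38, -1.53 to -1.25). Dennd2d had 446, 297 and 145 reads (log2 -1.38 in G2, -1.66 to -1.11, and -1.10 in G3, -1.39 to -0.80), and Dennd3 269, 179 and 98 (log2 -1.22 in G2, -1.57 to -0.88). With its 279, 88 and 106 lncRNA-table reads added, and the reads of both tables as total, Dennd2d was at -0.58 in G3, under the limit. On protein-coding transcripts alone Dennd3 was past the limit in G1 as well (-1.14). The most-read of the list were Rab3gap2 with 2929, 1969 and 2060 reads, Sbf2 with 2191, 1601 and 1964, and Sbf1 with 2002, 1261 and 1511. Their log2 ratios lay between -0.37 and 0.23.

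Of 35 GAPs with enough reads, 1 was lower in G1, 3 were higher and 3 lower in G2, and 1 was higher and 1 lower in G3. Against the shares of all genes just given, the 3 lower in G2 stood beside 8.54% and the 3 higher beside 3.11%. Sgsm1 had 674, 669 and 1292 reads (log2 1.18 in G2, 1.04 to 1.32), Tbc1d2b 602, 586 and 1166 (1.19, 1.05 to 1.34) and Sgsm3 581, 435 and 1006 (1.03, 0.88 to 1.18). These 3 were near the same level in BMM-ABs and pOC-ABs and higher in mOC-ABs, and Sgsm3 was also past the limit in G3 (1.15, 0.98 to 1.31). Tbc1d16 was lowest in pOC-ABs with 2111, 735 and 1278 reads (log2 -1.22 in G1, -1.34 to -1.10). Tbc1d9b had 1480, 693 and 607 (log2 -1.05 in G2, -1.18 to -0.91) and Tbc1d22a 1592, 789 and 970. With the reads of both tables as total, which alone moves every ratio in G2 by -0.10, and its 4, 0 and 0 lncRNA-table reads added, Sgsm3 was at 0.92 in G2, under the limit.

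Of the 48 listed effectors, 43, 42 and 40 had enough reads in the 3 comparisons. In G1, 0 were higher and 1 lower, in G2 1 higher and 1 lower, and in G3 0 higher and 1 lower. The shares of all genes were 2.93%, 3.11% and 2.64% for higher and 5.56%, 8.54% and 5.47% for lower. The one higher in G2 was Rilpl1, a partner of Rab8a and Rab10, with 144, 186 and 338 reads (log2 1.47, 1.19 to 1.76). The most-read effector was Plekhm1, a Rab7 partner needed for the osteoclast ruffled border, with 3518, 1594 and 2622 reads, and its log2 ratio in G1 was -0.84 (-0.93 to -0.76). Acap2 had 2052, 1732 and 2329 reads and Ehbp1l1 2615, 1554 and 1920, both under 2-fold in each comparison.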

How the data were processed

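The authors sequenced poly-A RNA of 3 libraries (paired-end) and, per the submitters' processing notes, used FastQC, HISAT2, StringTie and the build GRCm38, with no versions given. They deposited read counts and FPKM per transcript for mRNAs and lncRNAs and junction read counts for circRNAs. The deposited FPKM equals the count divided by transcript length and by the mRNA-table total. Strand handling is not given in the sources used here.

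GENCODE M21 gave the gene of each transcript, and counts were summed per gene. Ratios of 2 libraries, divided by mRNA-table totals, carry exact Clopper-Pearson intervals (SciPy 1.17.1, Python 3.11.15). With 1 library per group no test between conditions was possible. The ratio script was tested on simulated data. The lncRNA-table loci, from start to end with introns, were matched to exons by coordinates. The 50-base words of the members were searched in the GENCODE M21 transcripts. Alternatives were other scalings, read minimums, fold limits, FPKM, protein-coding transcripts only and, chosen after seeing the data, overlapping lncRNA reads.

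Named were the called members, the 3 most-read of each role, members of 500 reads or more whose most-read transcript changed, Rab3d, Rab7, Rab27a, Rab32, Rab38, Rab44 and Rab13, called pathway genes of 200 reads or more in the pair and the 3 most-read, overlapping lncRNAs of 20 reads or more and circRNAs of 3 junction reads or more. Remaining members were added after their values were seen. Members and lists were chosen with earlier results of these data known.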

Additional observations from a re-analysis of the deposited data

Results flagged for a closer look

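Circular RNAs were outside the comparisons. Of 1372 listed circRNAs, 5 came from exons of 4 Rab genes, and 4 of them had more than 3 junction reads in a library, the limit that a count of 0 allows. A circRNA of Rab3ip at chr10:116937397-116939481 had 0, 5 and 0 junction reads (macrophages, preosteoclasts, mature osteoclasts). The 2 circRNAs of Rab2a, which share the end at 8582493 on chromosome 4, had 0, 4 and 0 (start at 8561152) and 0, 0 and 5 (start at 8577955). A circRNA of Rab11a at chr9:64725502-64728429 had 2, 4 and 0. Differences between libraries at these counts were not detectable.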

How the results depend on the processing

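Of 108 values recomputed under another setting, 76 stayed within 1.5 times the main count, or within the interval of the main value, and 32 moved. Higher genes in G1 numbered 1 with lncRNA-table reads added. Lower genes in G1 numbered 0 with the upper quartile or when the whole interval had to pass the limit, and 2 on protein-coding transcripts only or with no minimum of reads. Higher genes in G2 numbered 1 with the total of both tables, with 100 reads, with the whole interval or with lncRNA-table reads, and 5 at a fold limit of 1.5. Lower genes in G2 numbered 5 with no minimum, 6 at 1.5-fold and 1 with the whole interval. In G3, higher genes numbered 1 with 100 reads or the whole interval, and lower genes 6 with no minimum, 8 at 1.5-fold, 1 with the whole interval and 0 with lncRNA-table reads. The counts with no minimum include genes with 0 reads in a library. For higher and lower genes, shares over all protein-coding genes were set beside only the main counts and those with lncRNA-table reads added. Under the other settings, a shift in these counts cannot be told from a shift of all genes. The G1 median was -0.0537 with the total of both tables and -0.0889 with lncRNA-table reads. The Rab share of reads was 0.200%, 0.190% and 0.199% over both tables and 0.262%, 0.291% and 0.286% on protein-coding transcripts, in the order of macrophages, preosteoclasts and mature osteoclasts, so that pOC-ABs held the highest share by the second and the lowest by the first. The protein-coding share was 90.4%, 90.5% and 92.2% by FPKM. Genes with a changing most-read transcript numbered 1 of 30 on protein-coding transcripts only (Rab1a, against 15.96% of all genes) and 9 of 42 (21.4%) at 20 reads, close to the 22.7% of all genes. Of the called genes, Rab43 reversed in G1 with lncRNA-table reads (-0.35), and the decrease of Rab22a in G2 was absent on protein-coding transcripts (0.0398). The causes were not tested beyond the transcripts named above. No paired analysis was possible because each group has 1 library, and no library could be left out for the same reason.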
